A study of Mus musculus with 30 samples.

Results

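The injured distal colon of late-colonized mice was compared with that of mice with a lifelong microbiota, in 6 of the 30 libraries of a study of how the microbiota shapes the intestine of C3H/HeOuJ mice. The 6 libraries were chosen by their titles: 3 from germ-free mice that received a specific-pathogen-free microbiota in week 5 of life (called COL) and 3 from mice that were specific-pathogen-free throughout (SPF). All 6 are distal colon RNA from mice aged 10 weeks that had drunk 1.5% dextran sulfate sodium (DSS) for 4 days and then water for 2 days. The same COL and SPF groups without DSS (6 libraries of distal colon at 10 weeks) and 18 libraries of untreated ileum (germ-free, COL and SPF at 6 and at 10 weeks) were used only where the text says so. All groups share the strain, and the labels name no transgene or other engineered allele. The labels number the libraries of a group 1 to 3, do not say whether each came from 1 mouse, and do not say whether the SPF mice and the germ-free-born mice descend from the same colony. Colonization history and origin therefore cannot be told apart, and the p-values measure the spread between these libraries.

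DSS in drinking water damages the single layer of epithelium that lines the colon, and the injury is greatest in the distal part. Bacteria then reach the tissue beneath, macrophages and epithelial cells release interleukin-1, tumour necrosis factor and CXC chemokines, and neutrophils enter from the blood. In parallel goblet cells, which make the mucus layer, and absorptive colonocytes are lost or less mature, and the surviving epithelium at the wound edge spreads, divides and switches on a repair program until the surface is closed again. Germ-free animals that meet bacteria only after weaning have passed through early life without microbial signals, and the comparison asks how the injured colon of such animals differs from that of animals colonized from birth.

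RNA was read as 3′ tags, with 1 tag near the poly(A) tail per transcript, and levels are given as CPM, a gene's reads relative to all reads in genes after scaling by the trimmed mean of M values. The 6 libraries held 4235350 to 6791455 reads in genes. Values of 3 libraries are listed in the order of replicates 1, 2 and 3, which is only a naming order. A difference is the log2 of COL over SPF after DSS, with its standard error, from edgeR's quasi-likelihood test fitted on all 12 colon libraries, and a gene was called when the Benjamini-Hochberg adjusted p was under 0.05. The defining markers of distal colon were present: Car1, a carbonic anhydrase of colon epithelium, had 1225 to 6851 reads and Hoxb13, a homeobox gene of the most distal gut, 1783 to 4008 reads in each of the 6 libraries. The small-intestinal genes Sis, Apoa4 and Defa24 were at 0 in all 6, while Fabp6, an ileal bile acid carrier, had 96 to 1489 reads. The squamous genes Krt4, Krt1 and Trp63 of the anal margin were also at 0, and Krt5 had 0 or 1 reads. The 18 listed squamous genes summed to 164, 378 and 383 CPM in SPF and 139, 182 and 112 CPM in COL libraries. The haemoglobin genes Hba-a1, Hba-a2, Hbb-bs and Hbb-bt were at 0 in all 6, but are uncertain where reads could fit several members. The 10 listed blood genes summed to 62.7 to 107 CPM. These zeros therefore do not show that squamous tissue or blood was absent. In bulk tissue, fewer cells of a type and less RNA per cell cannot be told apart, and this holds for every cell-type list below.

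Of 12855 genes tested, 1 was called, or 0.00778%: Efna2, which was higher in COL colon and whose values come next. Without a correction for multiple testing, 461 genes (3.59%) were higher and 569 (4.43%) lower in COL at p under 0.05, and these shares are the background for the counts of list members below. The lists were chosen with earlier results of these data known, so their counts are descriptions. The 3 COL values lay above all 3 SPF values for 747 genes (5.81%) and below them for 842 (6.55%). DESeq2, run as an alternative on the same counts, called 6 of the 10108 genes for which it gave an adjusted p (0.0594%): Efna2, Acpp, Slc8a1, Cyp2c55 and Col3a1 as higher and Ap2m1 as lower in COL. The libraries did not spread evenly: SPF replicate 3 held the highest of the 6 values for 22.8% of the genes and the lowest for 20.9%, against 10.1% and 11.5% for COL replicate 1. On the first principal component of the 6 libraries, which carried 40.5% of the variance, SPF replicate 3 lay at -60.3 and SPF replicate 2 at -24.3, COL replicate 1 at -1.89, COL replicate 2 at 21.9, SPF replicate 1 at 25.4 and COL replicate 3 at 39.2. SPF replicate 1 thus lay among the COL libraries, and the groups overlapped on the main axis of variation.

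Efna2 encodes ephrin-A2, a membrane-anchored ligand that signals through EphA receptors on neighbouring cells; the gene lies on chromosome 10 from 80179482 to 80190010 on the plus strand (mm10, GENCODE vM21), with no annotated gene overlapping it. After DSS it stood at 1.09, 0.59 and 2.4 CPM in the SPF libraries, from only 6, 3 and 10 reads, and at 16.1, 14.2 and 9.6 CPM in the COL libraries, from 112, 67 and 43 reads. The lowest COL library was above the highest SPF library, and the means were 13.3 ± 3.34 against 1.36 ± 0.936 CPM (SD, n = 3 each). Efna2 was higher in COL by 3.32 ± 0.48 on the log2 scale, with an edgeR adjusted p of 0.032. In untreated colon the values were 2.89, 4.35 and 7.05 CPM in SPF and 26.5, 15 and 18.4 CPM in COL, again without overlap, with a difference of 2.04 ± 0.41 that DESeq2 called (adjusted p = 0.0025) and edgeR did not (adjusted p = 0.26). The difference after DSS exceeded the untreated one by 1.28 ± 0.63 (edgeR adjusted p = 0.59), so a change of the gap with DSS was not shown. The call after DSS was lost without SPF replicate 2 (edgeR adjusted p = 0.45), COL replicate 1 (0.19) or COL replicate 2 (0.15), with differences of 2.96, 3.15 and 3.27, and was kept without SPF replicate 1 or 3 or COL replicate 3. It was also lost with only the 6 libraries compared (edgeR adjusted p = 0.31), with the replicate number as a block (0.092), with both (0.91), and without untreated COL replicate 2 (0.059), untreated COL replicate 3 (0.072) or untreated SPF replicate 2 (0.068).

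The same gene was then followed through the 18 ileum libraries, a step chosen after its colon values were seen. At 10 weeks Efna2 stood at 1.86, 2.60 and 2.40 CPM in SPF ileum, 14.8, 11.6 and 7.01 CPM in COL ileum and 9.84, 10.9 and 13.4 CPM in germ-free ileum. At 6 weeks it stood at 2.79, 1.85 and 2.62 CPM in SPF, 7.31, 8.85 and 7.58 CPM in COL and 8.06, 8.49 and 16.2 CPM in germ-free ileum. Every library of mice born germ-free was therefore above every SPF library of the same age, tissue and treatment. In edgeR's fit of the ileum, COL exceeded SPF by 2.30 ± 0.39 at 10 weeks (adjusted p = 0.011, with 0.0907% of genes called) and by 1.71 ± 0.37 at 6 weeks (adjusted p = 0.068, with 0.0982% called). Germ-free exceeded SPF ileum by 2.34 ± 0.39 at 10 weeks (adjusted p = 0.00035) and 2.18 ± 0.36 at 6 weeks (adjusted p = 0.00026), where 6.20% and 7.69% of genes were called. COL and germ-free ileum differed by -0.03 ± 0.33 at 10 weeks and -0.47 ± 0.34 at 6 weeks, with edgeR adjusted p of 0.98 and 0.52 (9.14% and 4.64% of genes called), which leaves differences of either sign possible.

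**Figure D1:**
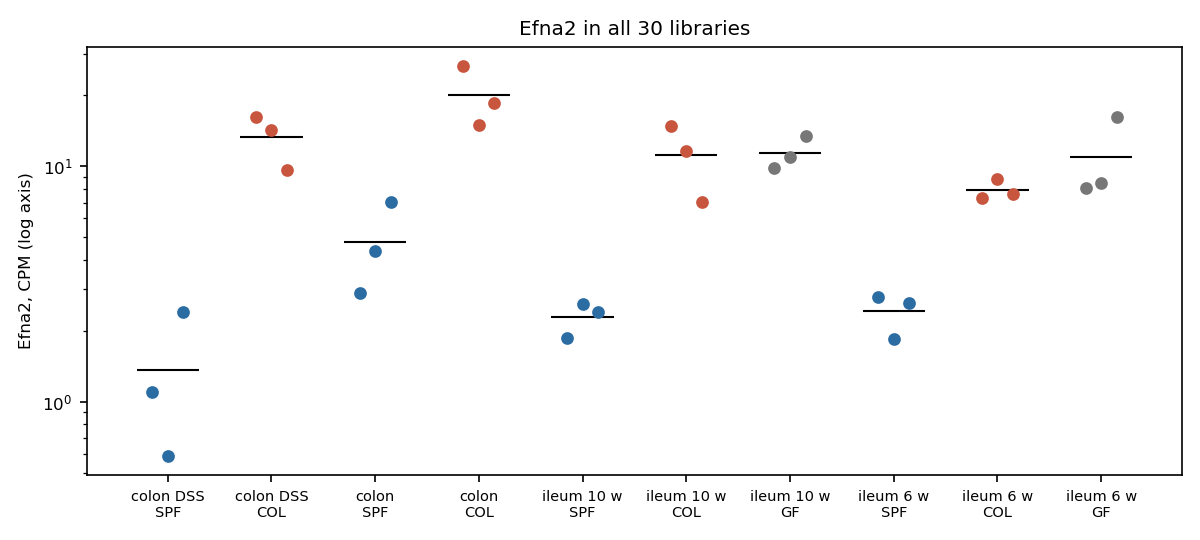
Efna2 in CPM (log axis) in the 30 libraries, by tissue, age and group; each point is 1 library and the bar is the mean of 3. SPF libraries (blue) lie between 0.590 and 7.05 CPM, and COL (red) and germ-free (grey, GF) libraries between 7.01 and 26.5 CPM, with no overlap within any tissue, age and treatment.

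Ephrins and Eph receptors, chiefly those of type B, position cells along the intestinal crypt, so the remaining members were read beside Efna2. Of 8 ephrin genes 7 were tested and Efna2 was the one called; the median difference of the 7 was -0.01 and that of 8 tested Eph receptors -0.12, against 0.00 over all genes. Efna1, another type A ephrin, stood at 87, 77.1 and 66.3 CPM in SPF and 93.7, 122 and 125 CPM in COL libraries. These groups did not overlap, but the difference of 0.56 ± 0.36 had an edgeR adjusted p of 0.72. Efnb3 was low, at 1.28, 0.787 and 0.961 CPM in SPF and 0.288, 0.634 and 0.447 CPM in COL, without overlap (difference -1.16 ± 0.85). Efnb1, a type B ephrin, at 135, 133 and 113 against 165, 160.1 and 129.5 CPM, overlapped between the groups.

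Goblet cells secrete the gel-forming mucin and its partners, and most of their genes had positive differences, that is, larger values in COL. Of 24 listed goblet and mucus genes 20 were tested: 0 were called, 4 were higher at unadjusted p under 0.05 against 0 lower, and 18 of 20 differences were positive, with a median of 0.71 (all genes: 0.00). SPF replicate 3 was the lowest of the 6 libraries for 18 of the 20 genes. Without that library the median was 0.35, and without SPF replicate 1 it was 1.14, with 3 and 11 genes higher at unadjusted p under 0.05.

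Atoh1 and Spdef, transcription factors of the lineage, did not overlap between the groups. Atoh1, which commits crypt cells to the secretory fate, stood at 46, 36.8 and 21.9 CPM in SPF and 75.6, 78.6 and 57.2 CPM in COL libraries, a difference of 1.01 ± 0.28 (edgeR adjusted p = 0.53). Spdef, which drives goblet cell maturation, stood at 15.9, 17.1 and 7.21 CPM in SPF and 27.8, 27.5 and 20.3 CPM in COL, a difference of 0.90 ± 0.30 (adjusted p = 0.53). For both genes every COL library was above every SPF library, and the difference without SPF replicate 3 was 0.77 for Atoh1 and 0.61 for Spdef. Untreated colon showed no such separation of Atoh1, at 90.8, 73.7 and 89.3 CPM in SPF and 114, 64.4 and 106 CPM in COL. Ern2, the endoplasmic reticulum stress sensor of mucus-making cells, stood at 33.2, 23.8 and 9.13 CPM in SPF and 31.1, 50.9 and 56.3 CPM in COL (difference 1.05 ± 0.36). Creb3l4, a membrane-bound transcription factor, stood at 11.7, 8.07 and 1.92 CPM in SPF and 22.5, 22.8 and 9.6 CPM in COL (difference 1.32 ± 0.50). Both overlapped between the groups.

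Secreted products of the lineage had their lowest level in SPF replicate 3. Muc2, the gel-forming mucin of the colon, stood at 2152, 1739 and 329 CPM in SPF and 2301, 2869 and 2754 CPM in COL (difference 0.91 ± 0.49, edgeR adjusted p = 0.68). The lowest COL value was above the highest SPF value by a narrow margin, and SPF replicate 3 was far below the other 5; without it the difference was 0.44. Zg16, a mucus lectin that binds Gram-positive bacteria, stood at 3881, 2802 and 587 CPM in SPF and 3061, 4428 and 5617 CPM in COL. Clca1, a secreted protease of mucus, stood at 301, 364 and 44.2 CPM in SPF and 247, 649.9 and 406 CPM in COL. Zg16 and Clca1 overlapped between the groups, with differences of 0.85 ± 0.46 and 0.87 ± 0.54, and again had their lowest value in SPF replicate 3. Tff3, the goblet cell trefoil peptide, stood at 1421, 789 and 192 CPM in SPF and 1212, 1173 and 1335 CPM in COL, and Retnlb, a goblet cell protein induced by bacteria, at 6067, 4535 and 884 CPM in SPF and 4663, 5553 and 7865 CPM in COL. SPF replicate 1 lay above all COL libraries for Tff3 and within their range for Retnlb, and the differences of 0.63 ± 0.45 and 0.65 ± 0.53 were within 2 standard errors. Galnt7, which is not on the list, is an enzyme that adds O-linked sugars to proteins such as mucins; it stood at 115, 97.6 and 53.8 CPM in SPF and 151, 155 and 235 CPM in COL, without overlap (difference 1.02 ± 0.26, adjusted p = 0.53).

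Enzymes that oxidize, conjugate and export foreign compounds are made by mature surface colonocytes, and most of this group also had positive differences. Of 26 listed genes 22 were tested: 0 were called, 6 were higher and 0 lower at unadjusted p under 0.05, 20 differences were positive, and the median was 0.58. SPF replicate 3 was the lowest library for 19 of the 22, and the median was from 0.29 (without SPF replicate 3) to 1.02 (without SPF replicate 1) with 1 of the 6 libraries left out, with 3 to 10 genes higher at unadjusted p under 0.05. Cyp2c55, a cytochrome P450 of the colon, stood at 7.66, 7.48 and 2.88 CPM in SPF and 17.1, 49.2 and 19.9 CPM in COL. The groups did not overlap, and the difference of 2.23 ± 0.49 was called by DESeq2 (adjusted p = 0.0045) but not by edgeR (adjusted p = 0.53). Gm23800 is annotated on the opposite strand of Cyp2c55, and their reads cannot be told apart without the strand setting. In untreated colon the same gene was far more abundant, at 374, 300.2 and 228 CPM in SPF and 395, 883 and 351 CPM in COL.

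Cyp2d26 stood at 0.547, 1.57 and 0.481 CPM in SPF and 3.17, 4.23 and 3.8 CPM in COL, and its difference of 2.05 ± 0.48 (edgeR adjusted p = 0.53) had the opposite sign to that in untreated colon, -0.79. There its values were 26, 13.9 and 17.1 CPM in SPF and 9.19, 10.8 and 12.9 CPM in COL. The SPF levels after DSS rest on few reads. In SPF replicates 1 and 3 they were below those of Efna2, which had 6 and 10 reads in these libraries. Both the difference after DSS and the interaction depend on them. The interaction, the difference after DSS minus the difference without it, was 2.84 ± 0.60 (edgeR adjusted p = 0.38, DESeq2 adjusted p = 0.028). For the interaction edgeR called 0 genes, DESeq2 called 16 (0.154%), and 1122 (8.73%) had an unadjusted edgeR p under 0.05. Cyp2c65 stood at 4.01, 3.15 and 1.2 CPM in SPF and 7.05, 12.3 and 7.59 CPM in COL (difference 1.65 ± 0.43). Gstm3, a glutathione transferase, stood at 17.5, 15 and 3.6 CPM in SPF and 17.6, 28.1 and 25.2 CPM in COL (difference 0.95 ± 0.38). Cyp2d26, Cyp2c65 and Gstm3 did not overlap between the groups, although COL replicate 1 and SPF replicate 1 were close for Gstm3. Sult1c2, a sulfotransferase, stood at 5.47, 7.09 and 3.12 CPM in SPF and 5.04, 17.1 and 11.4 CPM in COL and overlapped.

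**Figure D2:**
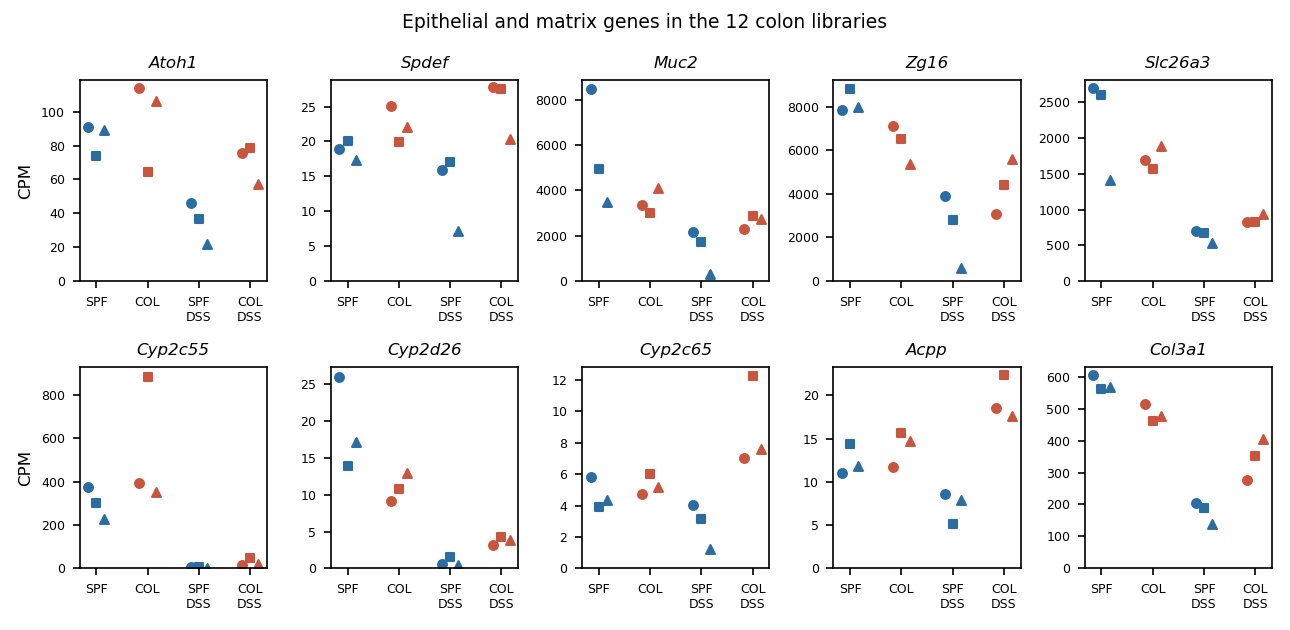
Levels in CPM of 10 epithelial and matrix genes in the 12 colon libraries (blue SPF, red COL; circle, square and triangle are replicates 1, 2 and 3; linear axes from 0). After DSS the COL libraries lie above the SPF libraries for Atoh1, Spdef, Muc2, Slc26a3, Cyp2c55, Cyp2d26, Cyp2c65, Acpp and Col3a1 and overlap them for Zg16, and SPF replicate 3 (triangle) is the lowest of the 6 for every gene but Acpp.

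Absorptive colonocytes were less uniform. Of 23 tested colonocyte genes 14 differences were positive and 9 negative, the median was 0.18, and 2 were higher and 1 lower at unadjusted p under 0.05. The median was of the other sign without SPF replicate 3, at -0.08. Slc26a3, the chloride-bicarbonate exchanger of the colon surface, stood at 696, 668 and 526 CPM in SPF and 826, 829.9 and 940.3 CPM in COL, without overlap, but the difference of 0.46 ± 0.26 was not called (edgeR adjusted p = 0.68). Both groups were below untreated colon, where Slc26a3 stood at 2705, 2602 and 1414 CPM in SPF and 1699.6, 1563 and 1883 CPM in COL. Aqp8, a water channel, stood at 392, 366 and 234 CPM in SPF and 247, 709 and 545 CPM in COL. Guca2a, the hormone guanylin, stood at 408, 551 and 66.8 CPM in SPF and 538, 1306 and 562 CPM in COL. Both overlapped, with the lowest guanylin level in SPF replicate 3. Slc9a2, a sodium-proton exchanger, stood at 23.2, 13.4 and 3.84 CPM in SPF and 19.3, 30.4 and 31 CPM in COL, and Ceacam1, an adhesion molecule, at 2196, 1675 and 949 CPM in SPF and 1919, 2622 and 3512 CPM in COL. Mall went the other way without overlap, at 208, 437 and 287 CPM in SPF and 189.8, 168 and 153 CPM in COL (difference -0.86 ± 0.27, adjusted p = 0.53).

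Most neutrophil genes had negative differences, that is, smaller values in COL, and SPF replicate 3 was the highest library for 7 of the 11 tested. Of 20 listed neutrophil genes 11 passed the filter on low counts: 0 were called, 6 were lower at unadjusted p under 0.05 against 0 higher, and 9 of 11 differences were negative, with a median of -0.89. Leaving out 1 of the 6 libraries gave medians from -1.37 (without SPF replicate 1) to -0.41 (without SPF replicate 3) and 1 to 7 lower genes, the fewest without SPF replicate 3. The summed level of all 20 listed genes, with those below the filter included, was 2524 to 5184 CPM in SPF and 1777 to 2406 CPM in COL libraries. Most of it came from Ly6g. S100a8, a subunit of calprotectin, which fills the neutrophil cytoplasm, stood at 4.38, 47.6 and 559.7 CPM in SPF and 18.3, 6.34 and 3.13 CPM in COL. S100a9, its partner, stood at 6.57, 29.7 and 528 CPM in SPF and 6.76, 2.54 and 1.12 CPM in COL. SPF replicate 3 was the highest for both, SPF replicate 2 was next, and SPF replicate 1 lay within the COL range. The differences of -4.41 ± 1.46 and -5.66 ± 1.71 were not called (edgeR adjusted p = 0.54 for each) and were -1.46 and -2.32 without SPF replicate 3.

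The 9 neutrophil genes below the filter had their highest total in the same library. Together they had 19, 50 and 771 reads in the SPF and 40, 7 and 11 reads in the COL libraries. Retnlg had 4, 6 and 374 reads in the SPF and 8, 1 and 0 reads in the COL libraries, and Mmp8, neutrophil collagenase, had 0, 0 and 109 reads in the SPF and 10, 0 and 0 reads in the COL libraries. Cxcr2, the neutrophil receptor for CXC chemokines, had 1, 4 and 19 reads in the SPF and 2, 1 and 1 reads in the COL libraries, with the same library on top. Among tested members, Il1r2, a decoy receptor for interleukin-1, stood at 0.729, 5.9 and 42.8 CPM in SPF and 4.46, 2.54 and 1.34 CPM in COL, and Itgam, the integrin CD11b of neutrophils and macrophages, at 6.38, 5.9 and 14.7 CPM in SPF and 4.46, 3.38 and 2.68 CPM in COL. Itgam did not overlap between the groups (difference -1.33 ± 0.46, adjusted p = 0.53). Ly6g, used as a neutrophil surface marker, stood at 1513, 2105 and 3036 CPM in SPF and 1079, 1415 and 1298 CPM in COL, without overlap (difference -0.81 ± 0.31). Ly6g was thus well covered also in libraries with 0 or 1 reads of Retnlg and Mmp8.

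The list of neutrophil attractants and inflammatory cytokines was likewise highest in SPF replicate 3 for 8 of the 13 genes tested. Of 24 listed genes 13 were tested: 0 were called, 6 were lower and 1 was higher at unadjusted p under 0.05, 11 differences were negative, and the median was -1.03, or -0.49 without SPF replicate 3, with 1 gene lower. Cxcl1, Cxcl2 and Cxcl3, ligands of Cxcr2, are neighbours on chromosome 5, and part of the promoter of each is shown because the 3 genes had their highest level in the same library. Each run gives the bases from 180 to 31 before the annotated start (RefSeq, GRCm38.p6, plus strand), and capitals mark GGGAATTTCCC, the longest run of bases that the 3 share there. It contains a form of the site bound by NF-κB, a transcription factor that switches on inflammatory genes.
Cxcl1, chr5:90891065-90891214: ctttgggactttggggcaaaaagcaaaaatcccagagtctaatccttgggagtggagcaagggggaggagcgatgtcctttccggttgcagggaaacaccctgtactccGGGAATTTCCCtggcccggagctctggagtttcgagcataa
Cxcl2, chr5:90903719-90903868: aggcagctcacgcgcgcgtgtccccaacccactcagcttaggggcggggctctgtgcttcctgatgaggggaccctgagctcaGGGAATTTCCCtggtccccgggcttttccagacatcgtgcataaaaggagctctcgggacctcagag
Cxcl3, chr5:90785921-90786070: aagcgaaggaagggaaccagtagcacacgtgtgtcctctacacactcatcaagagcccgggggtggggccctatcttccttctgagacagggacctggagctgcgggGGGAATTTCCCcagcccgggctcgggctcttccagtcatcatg
The run of 11 bases, searched on both strands, was in 10 of 32851 annotated promoters over the same window (0.0304%), and in 3 of the 18 listed attractants and cytokines for which a promoter was at hand, which include the 3 that defined it. The match is a description of the sequence and not evidence that the site was used here. The promoter of Efna2 over the same window (chr10:80179302-80179451, plus strand) had no match and 79.3% G and C, against 54% in Cxcl1, 62% in Cxcl2 and 60.7% in Cxcl3.

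Cxcl1 stood at 9.67, 26 and 131 CPM in SPF and 12.5, 6.34 and 7.37 CPM in COL, a difference of -2.64 ± 0.77 (edgeR adjusted p = 0.53). Cxcl2 stood at 5.29, 3.74 and 167 CPM in SPF and 3.02, 2.75 and 3.13 CPM in COL, a difference of -4.29 ± 1.38. Cxcl3, below the filter, had 2, 9 and 47 reads in the SPF and 1, 2 and 2 reads in the COL libraries. SPF replicate 3 was the highest library for all 3; Cxcl2 did not overlap between the groups, but its other 5 values lay within a narrow range and the difference without SPF replicate 3 was -0.60. Cxcl5, an epithelial attractant of neutrophils, stood at 4.56, 30.3 and 189 CPM in SPF and 14.4, 4.01 and 4.02 CPM in COL. Il1b, interleukin-1β, stood at 6.2, 11.8 and 193 CPM in SPF and 4.61, 8.24 and 8.26 CPM in COL. For Cxcl5 and Il1b SPF replicate 1 lay within the COL range, and the differences of -3.27 ± 1.10 and -3.32 ± 1.14 were -1.19 and -0.36 without SPF replicate 3.

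Il1rn, Tnf and Ido1 kept most of their difference without that library. Il1rn, the interleukin-1 receptor antagonist, stood at 207, 288 and 367 CPM in SPF and 177, 98.2 and 109 CPM in COL, a difference of -1.16 ± 0.35 that was -0.95 without SPF replicate 3 and -1.34 without SPF replicate 1. Tnf, tumour necrosis factor, stood at 15.7, 16.3 and 18.5 CPM in SPF and 3.89, 8.66 and 12.5 CPM in COL, a difference of -1.03 ± 0.43 that was -0.95 without SPF replicate 3. Ido1, which degrades tryptophan and is induced by interferon-γ, stood at 109, 72.8 and 114 CPM in SPF and 31.5, 7.18 and 42.2 CPM in COL, a difference of -1.87 ± 0.51 that was -1.75 without SPF replicate 3. For all 3 genes every COL library was below every SPF library, and the edgeR adjusted p was 0.53, 0.57 and 0.53. Il18, an epithelial cytokine named after its values were seen as the one member higher at unadjusted p under 0.05, stood at 261, 261 and 200.4 CPM in SPF and 309, 644 and 291 CPM in COL (difference 0.78 ± 0.31).

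Epithelial genes that bacteria induce were mixed. Of 16 tested, 7 differences were positive and 9 negative, with a median of -0.36 (from -0.43 (without COL replicate 1) to -0.14 (without SPF replicate 3) with 1 library left out) and 1 lower at unadjusted p under 0.05. Lcn2, which sequesters bacterial siderophores, was that gene, at 5.29, 5.71 and 68.5 CPM in SPF and 4.46, 2.54 and 0.893 CPM in COL; the difference of -3.25 ± 1.16 was -1.02 without SPF replicate 3. Saa3, a serum amyloid gene, stood at 7.48, 21.3 and 584 CPM in SPF and 64.2, 2.32 and 4.47 CPM in COL, so that 1 library in each group was high; the difference of -3.07 ± 1.62 became 0.75 without SPF replicate 3. Nos2, inducible nitric oxide synthase, stood at 78.2, 99.2 and 143 CPM in SPF and 43.2, 69.7 and 81.7 CPM in COL. Reg3b, an antibacterial lectin, stood at 4.56, 53.5 and 60.8 CPM in SPF and 25.8, 24.3 and 1.12 CPM in COL. Pglyrp1, a peptidoglycan-binding protein outside the list, stood at 164, 191 and 305 CPM in SPF and 101, 131 and 91.8 CPM in COL (difference -1.03 ± 0.26, adjusted p = 0.53). Nos2 and Reg3b overlapped and Pglyrp1 did not.

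**Figure D3:**
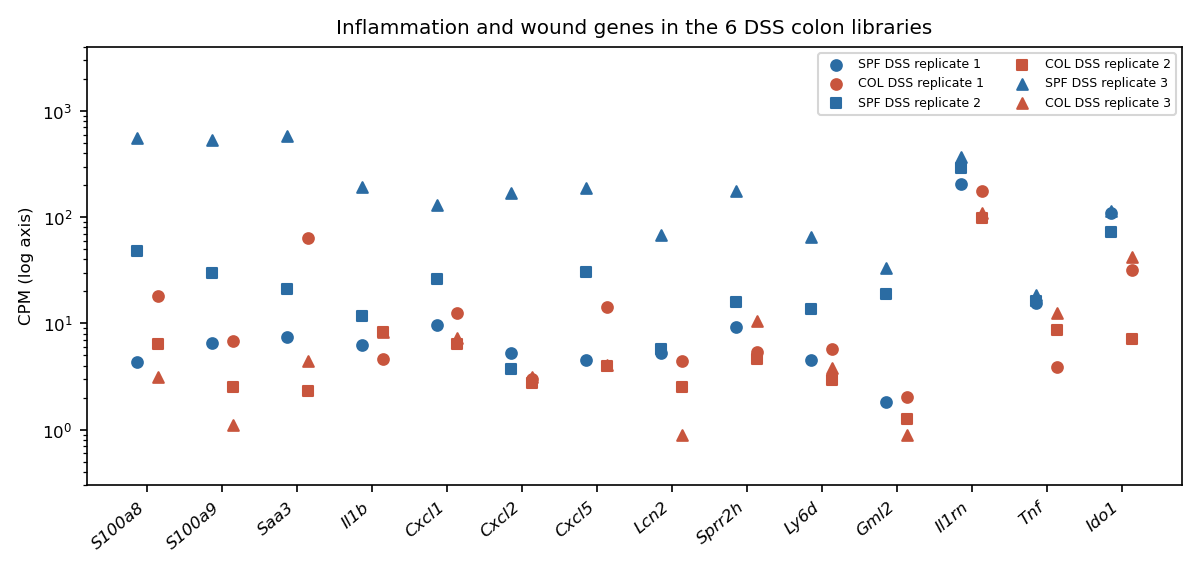
Levels in CPM (log axis) of 14 inflammation and wound genes in the 6 DSS colon libraries (blue SPF, red COL; circle, square and triangle are replicates 1, 2 and 3). SPF replicate 3 (blue triangle) is the highest library for all 14; S100a8, S100a9, Saa3, Il1b, Cxcl1, Cxcl5, Sprr2h, Ly6d and Gml2 overlap between the groups, and Cxcl2, Lcn2, Il1rn, Tnf and Ido1 do not.

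Wound-associated genes, which mark flattened epithelium at the edge of a lesion, had mostly negative differences. Of 30 listed genes 29 were tested: 0 were called, 9 were lower and 1 higher at unadjusted p under 0.05, 25 of 29 differences were negative, 8 genes had all COL values below all SPF values (background 6.55%), and the median was -0.56. The median was -0.38 without SPF replicate 3, with 3 genes lower, and -0.64 without SPF replicate 1. Tgm2, a transglutaminase that cross-links matrix, stood at 169, 497 and 519 CPM in SPF and 245, 143 and 143 CPM in COL (difference -1.15 ± 0.35). Sprr2h, a small proline-rich protein, stood at 9.3, 15.7 and 178 CPM in SPF and 5.33, 4.65 and 10.5 CPM in COL. Areg, amphiregulin, a growth factor for epithelium, stood at 18.2, 19.9 and 49.3 CPM in SPF and 11.4, 13.7 and 15.4 CPM in COL (difference -1.11 ± 0.38, adjusted p = 0.53). Areg did not overlap between the groups, while SPF replicate 1 lay within the COL range for Tgm2 and Sprr2h. Itga2, a collagen-binding integrin named after its values were seen, was the 1 member higher at unadjusted p under 0.05, at 2.19, 4.13 and 2.88 CPM in SPF and 6.76, 9.08 and 5.36 CPM in COL (difference 1.20 ± 0.47).

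Several genes with smaller values in COL lie side by side on chromosome 15, in the cluster of Ly6 genes, which encode small surface proteins anchored in the membrane; this interval was looked at after the values were seen. Between Ly6d at 74762056 and Ly6g ending at 75159126 (mm10), 10 of the 25 annotated genes were tested. All 10 differences were negative (Ly6k and 2010109I03Rik changed sign under some alternatives), 5 of them at unadjusted p under 0.05 (background 4.43%), and the median was -0.69. Ly6d and Ly6g, which set the ends of the interval, are among these 5, so the count is a description and not a test. Ly6d stood at 4.56, 13.6 and 64.6 CPM in SPF and 5.76, 2.96 and 3.8 CPM in COL. Gml stood at 0.729, 17.3 and 36 CPM in SPF and 2.45, 2.96 and 0.67 CPM in COL, and Gml2, next to it, at 1.82, 19.1 and 33.4 CPM in SPF and 2.01, 1.27 and 0.893 CPM in COL. Cyp11b1 overlaps the 3′ end of Gml2 on the opposite strand, where their reads likewise cannot be told apart. For these 3 genes, which lie within 72.8 kb, SPF replicates 2 and 3 were high and SPF replicate 1 was like COL; the differences were -2.69 ± 0.75, -3.11 ± 1.02 and -3.63 ± 0.89. Ly6e, by contrast, was highest in SPF replicate 1, at 307, 181 and 172 CPM in SPF and 119.7, 94.6 and 124 CPM in COL, without overlap (difference -0.96 ± 0.29). Ly6a, also called Sca-1, stood at 4684, 5308 and 6897 CPM in SPF and 3262, 4032 and 4149 CPM in COL, again without overlap, with a difference of -0.56 ± 0.38 (edgeR adjusted p = 0.74). The difference was -0.41 ± 0.30 for Ly6c1, -0.49 ± 0.41 for Ly6c2, -0.20 ± 1.22 for Ly6k and -0.32 ± 0.38 for 2010109I03Rik. Members of the cluster resemble each other in sequence, so the levels of single members are uncertain.

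Matrix proteases had mostly negative and collagens mostly positive differences. Of 15 tested proteases and inhibitors 12 differences were negative, 4 were lower and 0 higher at unadjusted p under 0.05, and the median was -0.49, with values from -0.81 (without COL replicate 1) to -0.15 (without SPF replicate 3) and 0 to 5 lower genes when 1 of the 6 libraries was left out. Plat, tissue plasminogen activator, stood at 5.84, 8.46 and 25.7 CPM in SPF and 6.91, 4.65 and 2.68 CPM in COL. Mmp13, a collagenase, stood at 3.83, 3.15 and 16.1 CPM in SPF and 1.58, 2.11 and 3.13 CPM in COL. Mmp13 did not overlap between the groups, and its difference of -1.75 ± 0.69 was -0.63 without SPF replicate 3, its highest library. Timp3, an inhibitor of matrix proteases, stood at 102, 81.5 and 120.4 CPM in SPF and 74.8, 78.2 and 63.2 CPM in COL without overlap (difference -0.49 ± 0.23).

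Of 23 collagen and matrix genes, all tested, 16 differences were positive, 3 were higher and 0 lower at unadjusted p under 0.05 and the median was 0.17, with values from 0.10 (without COL replicate 2) to 0.35 (without SPF replicate 1) when 1 of the 6 libraries was left out. Col3a1, the chain of type III collagen, stood at 203, 189.7 and 138 CPM in SPF and 275, 352 and 405 CPM in COL, without overlap. Its difference of 0.96 ± 0.22 was called by DESeq2 (adjusted p = 0.022) and not by edgeR (adjusted p = 0.53). In untreated colon the SPF values were the larger ones, at 606, 562 and 569 CPM in SPF and 514, 461 and 479 CPM in COL, and the interaction was 1.22 ± 0.31 (DESeq2 adjusted p = 0.047, edgeR adjusted p = 0.5). Gm47302 is annotated as overlapping Col3a1 on the same strand, and reads of the overlap cannot be told apart. Sparc, a collagen-binding matrix protein, stood at 216, 168 and 143 CPM in SPF and 209, 306 and 245 CPM in COL, and Col5a2 at 26.1, 18.5 and 21.4 CPM in SPF and 25, 34.2 and 41.1 CPM in COL. Col8a1, a short-chain collagen outside the list, did not overlap, at 10.2, 4.53 and 3.84 CPM in SPF and 14.4, 16.5 and 14.3 CPM in COL (difference 1.26 ± 0.35).

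Smooth muscle genes, which come from the muscle coat and from the thin muscle under the mucosa, had almost only positive differences. All 20 were tested, 19 differences were positive, 4 were higher at unadjusted p under 0.05, and the median was 0.48. This moved with single libraries, to values from 0.20 (without COL replicate 3) to 0.72 (without SPF replicate 1) and 0 to 10 higher genes, the 0 being without SPF replicate 3 and without COL replicate 3. Myh11, smooth muscle myosin, stood at 274, 127 and 130.2 CPM in SPF and 145, 256 and 715 CPM in COL. Acta2, smooth muscle actin, stood at 1082, 616 and 467 CPM in SPF and 591, 1226 and 1988 CPM in COL. Cav1, the caveolar protein, stood at 50.9, 28.3 and 31.2 CPM in SPF and 34.3, 51.5 and 213 CPM in COL. COL replicate 3 was the highest library for 13 of the 20 genes, SPF replicate 1 lay above COL replicate 1, and the groups overlapped for each of these 3. The summed level of the 20 genes was 3001 to 6228 CPM in SPF and 3174 to 9055 CPM in COL libraries; its part in the collagen differences was not tested.

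Interferon-responsive genes were widely spread within both groups. Of 27 interferon-γ response genes 14 differences were positive and 13 negative (median 0.07), and of 27 type I interferon response genes 20 were positive (median 0.23). The mean log2 CPM of the interferon-γ list was 7.29, 6.51 and 6.16 in SPF and 5.75, 6.21 and 7.36 in COL libraries, highest in COL replicate 3 and SPF replicate 1. COL replicate 3 was the highest library for 18 of the 27 type I genes, and SPF replicate 3 the lowest for 17. Both medians changed sign with the library left out. That of the type I list ran from -0.10 (without COL replicate 3) to 0.97 (without SPF replicate 1), and that of the interferon-γ list from -0.65 (without COL replicate 3) to 0.51 (without SPF replicate 1), with 8 genes lower at unadjusted p under 0.05 without COL replicate 3. Psmb8, an immunoproteasome subunit, stood at 549, 470.4 and 549 CPM in SPF and 268, 330.0 and 544 CPM in COL. Cxcl9, an interferon-γ-induced chemokine, stood at 58.4, 37.6 and 90.1 CPM in SPF and 22.6, 29.6 and 53.6 CPM in COL. Mx1, an antiviral GTPase, stood at 5.29, 3.74 and 4.33 CPM in SPF and 4.75, 8.66 and 15.2 CPM in COL, and Dhx58, a sensor of viral RNA, at 10.0, 6.89 and 5.77 CPM in SPF and 7.92, 14.2 and 23.7 CPM in COL. All of these overlapped. Ido1, given above, was the 1 member of the interferon-γ list at unadjusted p under 0.05.

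Macrophages, the subject of the study's title, showed no shared direction. Of 20 listed macrophage genes 19 were tested, 9 differences were positive and 10 negative, the median was -0.03 (from -0.13 (without SPF replicate 1) to 0.20 (without SPF replicate 3) with 1 library left out), and 1 was lower at unadjusted p under 0.05. Adgre1, which encodes the F4/80 antigen, stood at 5.11, 4.33 and 5.05 CPM in SPF and 5.47, 3.8 and 3.35 CPM in COL, and Cx3cr1, the fractalkine receptor of resident macrophages, at 10.8, 10.6 and 10.8 CPM in SPF and 14.4, 17.1 and 8.26 CPM in COL. C1qb, a complement chain made by macrophages, stood at 17.5, 17.5 and 34.1 CPM in SPF and 11.8, 11.4 and 17.6 CPM in COL. Itgax, the integrin CD11c, was the gene lower at unadjusted p under 0.05, at 26.1, 24.4 and 32.9 CPM in SPF and 22, 14.8 and 10.9 CPM in COL, without overlap (difference -0.79 ± 0.31, adjusted p = 0.56). The standard error of Adgre1 was 0.47 around a difference of -0.18, and its edgeR adjusted p was 0.95, which does not show that the groups are alike.

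Most genes of dividing cells and most immediate early genes had negative differences. Of 28 cell cycle genes, all tested, 23 differences were negative, 3 were lower and 0 higher at unadjusted p under 0.05, and the median was -0.24. It was -0.13 without SPF replicate 3, with 0 genes lower, and -0.33 without SPF replicate 1, with 7 lower; SPF replicate 3 was the highest library for 21 of the 28. Ube2c, which ends mitosis, stood at 85.5, 104 and 151 CPM in SPF and 70.8, 72.3 and 33.7 CPM in COL, without overlap. Birc5, survivin, stood at 183, 548 and 719 CPM in SPF and 245, 191 and 275 CPM in COL, and Rrm2, which makes deoxynucleotides, at 42.3, 65.9 and 126 CPM in SPF and 45.6, 50.3 and 30.8 CPM in COL. SPF replicate 1 was low for Birc5 and Rrm2 and lay within or below the COL range.

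Of 27 tested immediate early genes 21 differences were negative, 8 were lower and 0 higher at unadjusted p under 0.05, and the median was -0.41. It was -0.14 without SPF replicate 3, with 4 genes lower, and -0.21 without SPF replicate 1. Zfp36, which destabilizes cytokine messages, stood at 55.6, 84.6 and 72.3 CPM in SPF and 46.5, 28.7 and 50.9 CPM in COL. Ier2 stood at 78.4, 114 and 75.7 CPM in SPF and 57.4, 53.7 and 60.1 CPM in COL, and Dusp2, a phosphatase of MAP kinases, at 11.9, 17.1 and 50.7 CPM in SPF and 10.9, 4.65 and 4.47 CPM in COL. These 3 did not overlap, with differences of -0.75 ± 0.25, -0.65 ± 0.22 and -1.95 ± 0.65. Egr1 stood at 59.3, 35.8 and 185 CPM in SPF and 29.9, 28.9 and 36.6 CPM in COL, and its high value was again in SPF replicate 3.

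Stress chaperones refold damaged proteins, and their difference between treated and untreated colon was not tested for the list. The median was -0.27 after DSS, with 16 of 21 differences negative, but -0.02 without SPF replicate 3, and it was 0.70 in untreated colon. Bag3, a co-chaperone, stood at 129, 166 and 151 CPM in SPF and 99.9, 65.5 and 65.2 CPM in COL after DSS, without overlap (difference -0.95 ± 0.28), and at 32.9, 42.8 and 66.3 CPM in SPF and 71, 103 and 61.9 CPM in COL untreated. Hspa1a, an inducible Hsp70, stood at 16.8, 42.7 and 26 CPM in SPF and 20.4, 10.6 and 16.5 CPM in COL after DSS, and at 28.4, 23 and 13.7 CPM in SPF and 189, 52.2 and 96 CPM in COL untreated. The interaction was -1.68 ± 0.39 for Bag3 and -3.22 ± 0.64 for Hspa1a, with DESeq2 adjusted p of 0.047 and 0.0032 and edgeR adjusted p of 0.48 and 0.38. Untreated, the Hspa1a difference of 2.38 was called by DESeq2 (adjusted p = 0.001).

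**Figure D4:**
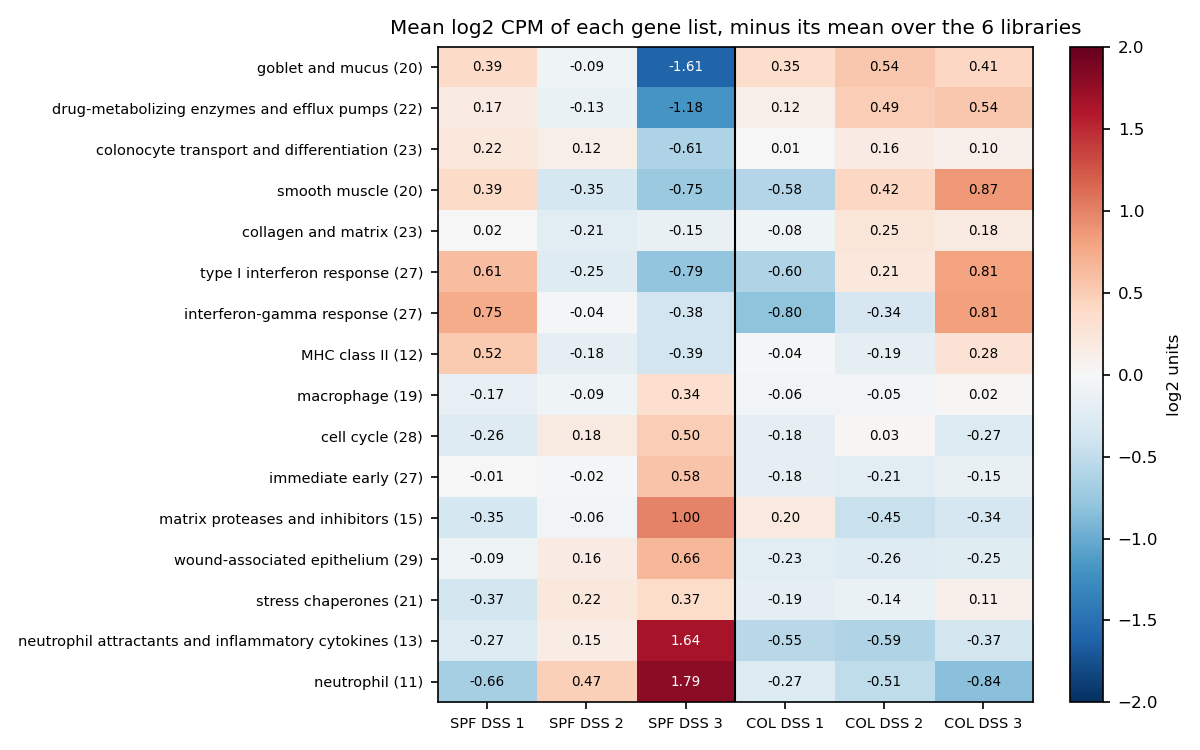
Mean log2 CPM of the tested members of 16 gene lists (number tested in parentheses) in each DSS colon library, minus the list's mean over the 6 libraries; red is above and blue below that mean. SPF DSS 3 holds the highest neutrophil value (1.79) and the lowest goblet value (-1.61), and the interferon-gamma list is highest in COL DSS 3 (0.81) and SPF DSS 1 (0.75).

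Outside the lists, the genes with the smallest p had roles of many kinds. Acpp, an acid phosphatase that acts on extracellular nucleotides, stood at 8.57, 5.12 and 7.93 CPM in SPF and 18.6, 22.4 and 17.6 CPM in COL, a difference of 1.44 ± 0.29 called by DESeq2 (adjusted p = 0.01) and not by edgeR (adjusted p = 0.53). Slc8a1, a sodium-calcium exchanger, stood at 5.65, 7.87 and 11.3 CPM in SPF and 15.4, 23.7 and 26.8 CPM in COL, a difference of 1.41 ± 0.31 (DESeq2 adjusted p = 0.036). In untreated colon the differences were 0.18 and 0.04. On the opposite strand of Slc8a1 the annotation holds AC122399.1 and Gm11096, and without the strand setting their reads cannot be told apart. Ap2m1, a subunit of the clathrin adaptor, had values close together within each group, at 127, 131 and 128 CPM in SPF and 84.9, 76.1 and 69.4 CPM in COL (difference -0.74 ± 0.19, DESeq2 adjusted p = 0.048). Without SPF replicate 3 the differences of Acpp, Slc8a1 and Ap2m1 were 1.51, 1.69 and -0.74. Ralgps1 stood at 5.29, 5.9 and 3.84 CPM in SPF and 8.92, 14.4 and 24.6 CPM in COL, and Mtus2 at 5.47, 7.28 and 9.37 CPM in SPF and 21.9, 15.8 and 19.6 CPM in COL. Among genes lower in COL, Prpf19, a splicing factor, stood at 96.8, 114 and 135 CPM in SPF and 68.9, 53.9 and 58.5 CPM in COL, and Tubb2a, a β-tubulin, at 37.6, 41.9 and 49 CPM in SPF and 17.4, 18.6 and 27 CPM in COL. Ankrd9 stood at 40.3, 40.1 and 45.2 CPM in SPF and 20.9, 19.6 and 25 CPM in COL, and Itpripl2 at 30.6, 16.1 and 14.2 CPM in SPF and 8.92, 9.3 and 7.37 CPM in COL. All 6 of these, like Galnt7 and Pglyrp1 above, were chosen among genes without overlap. Each of the 6 had an edgeR adjusted p of 0.53.

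Of the 6 libraries compared, SPF replicate 1 moved the number of called genes most when it was left out. Then 29 of 13157 genes were called by edgeR (0.22%), 16 higher and 13 lower in COL, against 1 with all 6, 0 without SPF replicate 2, COL replicate 1 or COL replicate 2, and 1 without SPF replicate 3 (0.0076%) or COL replicate 3 (0.00758%). Of the higher ones Spink4, a protease inhibitor of goblet cells, stood at 614, 205 and 90.4 CPM in SPF and 413, 727 and 407 CPM in COL. Sycn, syncollin of secretory granules, stood at 921, 133 and 75.2 CPM in SPF and 356, 473 and 1408 CPM in COL. Fut9, a fucosyltransferase, stood at 51.2, 9.45 and 4.81 CPM in SPF and 32.8, 36.3 and 50.5 CPM in COL. For each of the 3, SPF replicate 1 was inside or near the COL range and the other 2 SPF libraries were below it. With all 6 libraries the differences were 0.77 ± 0.49, 0.98 ± 0.80 and 0.85 ± 0.60; without SPF replicate 1 they were 1.81, 2.85 and 2.47, with edgeR adjusted p of 0.0496, 0.0496 and 0.014. Gal3st2, a sulfotransferase of mucin sugars, stood at 10.0, 3.35 and 0.721 CPM in SPF and 13, 11.6 and 15.9 CPM in COL, and Ctse, an aspartic protease, at 46.7, 15.4 and 11.8 CPM in SPF and 34.8, 64.9 and 68.1 CPM in COL. Cbr2, Foxq1, Klf3, Atp2c2, Slc37a2, Chpt1, Col8a1, Mettl7a2, Ramp1 and Trpm6 were the others beside Efna2.

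The 13 lower genes without SPF replicate 1 were Cxcl1, Ly6d, Gml, Gml2, Tgm2, Tmigd1, Pomp, Tardbp, Tmed9, Ckap4, Eef1d, Plekhg3 and Rsl24d1. Tmigd1, an epithelial adhesion molecule, stood at 10.2, 61.6 and 27.9 CPM in SPF and 10.1, 14.2 and 8.71 CPM in COL. Pomp, which assembles the proteasome, stood at 361, 827 and 1123 CPM in SPF and 427, 299 and 311 CPM in COL. Tardbp, the RNA-binding protein TDP-43, stood at 236, 640.2 and 655 CPM in SPF and 318, 277 and 276 CPM in COL, and Tmed9, a cargo receptor of the secretory pathway, at 291, 660.5 and 594 CPM in SPF and 275, 228 and 217 CPM in COL. In each, SPF replicate 1 was close to the COL libraries and SPF replicates 2 and 3 were higher. Cxcl1 was -3.13 and Gml2 -4.16 in that comparison, with edgeR adjusted p of 0.0496 and 0.0186. These calls rest on 2 SPF libraries, and leaving out SPF replicate 1 was singled out with its effect already known.

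**Figure D5:**
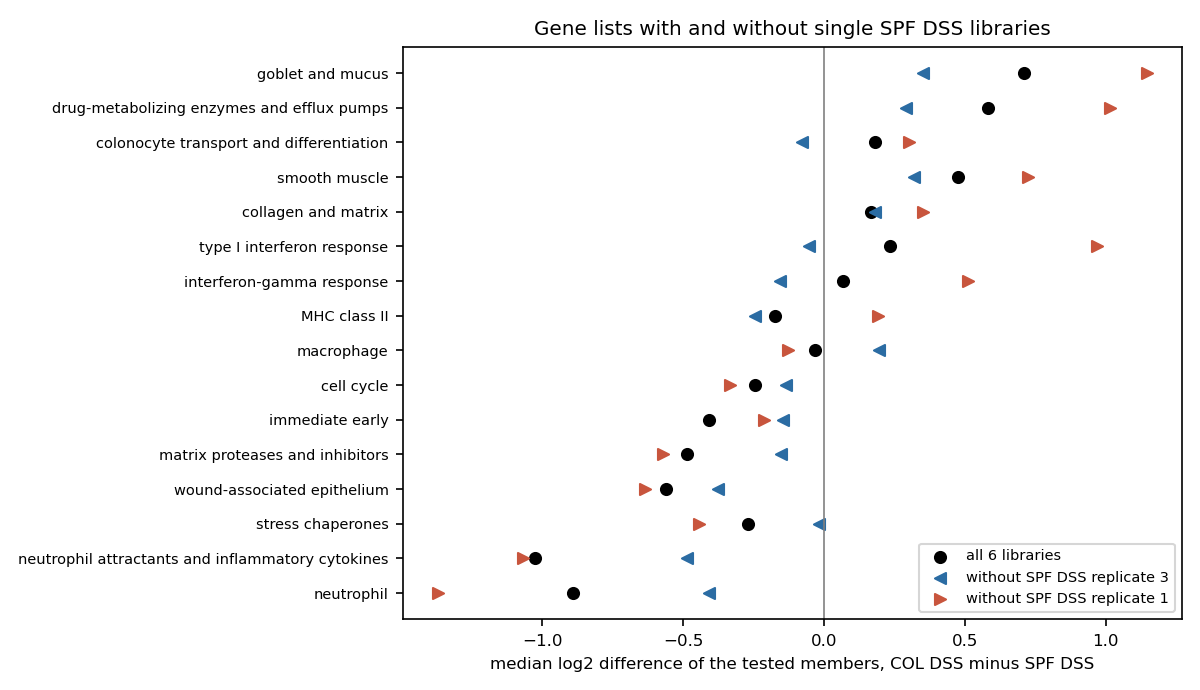
Median log2 difference, COL DSS minus SPF DSS, of the tested members of 16 gene lists with all 6 libraries (black), without SPF DSS replicate 3 (blue) and without SPF DSS replicate 1 (red); 0 means no difference. The goblet and wound lists keep their side in all 3 versions (0.71, 0.35 and 1.14; -0.56, -0.38 and -0.64), and the type I interferon list does not (0.23, -0.05 and 0.97).

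Lists of other cell types are given by their medians, beside 0.00 over all genes. The median was 0.07 over 15 B and plasma cell genes, -0.38 over 9 T, NK and intraepithelial lymphocyte genes, -0.17 over 12 MHC class II genes, 0.10 over 19 endothelial genes, -0.07 over 21 nerve and glia genes and -0.03 over 17 enteroendocrine and tuft cell genes. None of these lists had a called gene, and at unadjusted p under 0.05 they held 0, 0, 1, 0, 2 and 2 genes. Stem cell and Wnt target genes (16 tested) had a median of -0.08 and sterol synthesis genes (23 tested) of -0.14. It was -0.21 over 10 monocyte genes, 0.49 over 9 eosinophil and mast cell genes (with Epx, an eosinophil granule enzyme, at 0 reads in all 6), -0.06 over 9 fat and mesentery genes and -0.08 over 17 circadian clock genes. The squamous list (6 tested) had a median of -0.30 and the blood list (3 tested) of -0.40. Each held 1 gene lower at unadjusted p under 0.05. Several of these medians moved with the library left out. The B and plasma cell median ran from -0.57 (without COL replicate 1) to 0.42 (without COL replicate 3). The T, NK and intraepithelial median ran from -0.55 (without COL replicate 1) to -0.03 (without SPF replicate 3). The eosinophil and mast cell median ran from 0.05 (without COL replicate 1) to 0.74 (without SPF replicate 2). Of the T cell receptor complex, Cd3e had 0 to 6 reads and Cd3g 0 to 9 reads per library, too few to test.

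For COL against SPF in untreated colon edgeR called 0 genes and DESeq2 28 (0.231%), while 988 (7.69%) had an unadjusted edgeR p under 0.05. The lists described above had untreated medians of -0.04 (goblet), -0.26 (drug-metabolizing), -0.23 (wound), 0.18 (neutrophil), 0.08 (cytokine) and -0.26 (collagen). COL lay above SPF without overlap both with and without DSS for 61 genes (0.475%) and below for 53 (0.412%). Averaged over both treatments, Efna2 was the one gene called by edgeR, at 2.68 ± 0.32 with an adjusted p of 0.0021.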

How the data were processed

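RNA of 30 mouse tissue libraries was read by QuantSeq 3′ sequencing on an Ion Torrent instrument, per the labels' protocols. The authors deposited raw read counts per gene symbol, 1 file a library; the submitters' processing notes name Trimmomatic 0.36, FastQC 0.11.5, STAR 2.5.3a, HTSeq and mm10. Which annotation HTSeq used, in which version and whether by strand is not given in the sources used here. The 5 summary lines of each file (unassigned reads) were left out; 48.0% to 52.7% of all reads were in genes. The 12 colon libraries (3830539 to 6791455 reads in genes) were fitted together with edgeR 4.0.16 (limma 3.58.1, R 4.3.3): TMM scaling, the filter on low counts by group, and the quasi-likelihood test with robust spread, Benjamini-Hochberg adjusted over 12855 genes. DESeq2 1.42.0, no filter, other size factors, only the 6 libraries, the replicate number as a block and leaving out each library were alternatives. The ileum was fitted apart, for Efna2 and for the other genes that DESeq2 called after DSS. Acpp, Slc8a1, Cyp2c55, Col3a1 and Ap2m1 differed between COL and SPF ileum at 10 weeks by -0.24, 0.46, 0.01, 0.40 and -0.06. None was called there (edgeR adjusted p of 0.68 or more) or at 6 weeks (0.55 or more). The scripts were tested on simulated data.

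The libraries compared, the gene lists and the rule for named genes were chosen with earlier results of these data known. The rule took every gene called by edgeR or DESeq2 and the 10 smallest p in each direction among well-covered genes without overlap. It also took up to 5 members a list, a fixed set, and genes called without SPF DSS replicate 1. The fixed set held standard colitis genes and Efna2, named there with earlier results known. Exceptions are named as such. No 2 colon libraries of a group were alike within sampling noise (chi-square per degree of freedom 9.26 to 48.3). Near-identical families (Saa, Sprr2, Cyp2c, Reg3, Gml, Ly6, haemoglobin and Defa genes) are uncertain where reads could fit several members. Symbols of immunoglobulin and T cell receptor constant regions were not analysed here.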

Additional observations from a re-analysis of the deposited data

How the results depend on the processing

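The number of genes called for COL against SPF after DSS was 1 in the edgeR fit and 6 with DESeq2, 0 with only the 6 libraries compared, 0 with the replicate number as a block and 0 with that block and only the 6 libraries; leaving out 1 of the 12 colon libraries gave 0 to 29, with 29 without SPF DSS replicate 1. In untreated colon the number was 0, against 28 with DESeq2, 8 without the filter, 2 with the replicate block and only the 6 libraries, and 0 to 94 with 1 library left out (94 without SPF untreated replicate 3). For the interaction it was 0, against 16 with DESeq2 and 0 to 1 with 1 library left out. The cause was not tested. Efna2 kept its direction in all settings run; its edgeR adjusted p of 0.032 became 0.31 with only the 6 libraries, 0.092 with the replicate block and 0.91 with both, and 0.059, 0.072 and 0.068 without COL untreated replicate 2, COL untreated replicate 3 and SPF untreated replicate 2. The labels do not say that a shared number links libraries, and same-numbered COL and SPF libraries correlated at -0.22, 0.04 and -0.12, so the numbers were not taken as pairs. In the ileum at 10 weeks Efna2 was 2.05 (adjusted p = 0.052) without COL replicate 1, and at 6 weeks DESeq2 gave an adjusted p of 0.0073. Of 108 genes printed, 105 kept their sign in all settings run. Many of them were chosen by a small p or by groups without overlap in these same data, which favours a kept sign. The share over all genes is not given, so this count does not measure robustness. Saa3 ranged from -5.90 to 0.75 with 1 library left out, Ly6k from -1.54 to 0.82 (0.14 with the replicate block) and 2010109I03Rik from -0.73 to 0.13. Genes with few reads in every library were limited by depth. Several neutrophil and cytokine genes below the filter instead had their reads chiefly in SPF DSS replicate 3, such as Retnlg (374 reads), Mmp8 (109) and Ccl4 (75). The filter asks for reads in as many libraries as a group holds, so genes covered in 1 library did not pass.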
